A study of Mus musculus with 3 samples.

Results

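The genes described here are those of ionotropic and metabotropic receptors for glutamate, GABA, glycine and acetylcholine that the marker tables of a lateral septum study list. They were taken by name, as every listed gene whose symbol starts with the stems Gria, Grid, Grik or Grin and a digit, Grm and a digit, Gabr, Gabbr, Glra, Glrb, Chrna, Chrnb, Chrm and a digit, or P2r. This gave 23 genes of the 1039 different genes in the tables, and no expression value entered the choice beyond a gene being listed. Of the 23, 13 encode glutamate receptor subunits or receptors, 6 encode GABA-A subunits and 1 a glycine receptor subunit. The name of amino acid receptors therefore holds for 20 of them. Chrna7 and Chrm2 encode receptors for acetylcholine. Grid2ip, which encodes delphilin, is not a receptor gene and matched by its symbol alone.

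The samples are 3 libraries of nuclear RNA from the lateral septum of 8 male C57BL/6J littermates aged 3 months, which were naive and untreated and which all belong to 1 group. Punched tissue of all mice went into a single pool that was sorted for nuclei before the droplet step, so neither mice nor libraries can be told apart in the values. By its title, the study is about how context regulates feeding through prodynorphin neurons in the dorsolateral septum. The submitters' protocol allows for some medial septum, triangular septum, prefrontal cortex and striatum in the punches.

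Ionotropic glutamate receptors are cation channels of several subunits and are grouped as AMPA, kainate, delta and NMDA receptors, of which the NMDA receptors need glutamate together with glycine or D-serine. Metabotropic glutamate receptors act through G proteins: group I receptors couple to phospholipase C, and group II and III receptors lower cyclic AMP and often sit on axon terminals. GABA-A and glycine receptors are chloride channels of several subunits. The lateral septum is made mostly of GABAergic neurons that receive glutamatergic input from the hippocampus and inhibit one another, so receptors of these families carry much of its input.

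The values are those of 3 marker tables: 25 broad clusters of all nuclei, 22 subclusters of the GABA neurons and 8 subclusters of a set of nuclei labelled Sst. Each cluster has 50 listed genes, ordered by p-value within the cluster, each with an average log2 fold change of at least 1 against all other nuclei of that table. Detection is the percentage of nuclei with the gene found, given inside the cluster and outside it. Being left out of the 50 does not show that a gene was equal inside and outside. The number of nuclei and their depth are unknown, there is no value per library, so the values stand here without replicate error, counting interval or test. The part of low detection that comes from free RNA in the droplets was not tested. Clusters were compared with cell type markers: 7 of 11 lateral septum markers were listed somewhere, but at most 3 in the same cluster, and the general GABA markers Gad1, Gad2 and Slc32a1 were listed for 0 clusters.

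Of 85 genes in 12 receptor families, 22 were listed in at least 1 table. The broad table listed 18 of the 85 (21.2%), where 4.05% of its 20574 tested genes were listed. The GABA table listed 17 (20%) against 3.52% of 20044 genes, and in the Sst table it was 12 (14.1%) against 1.95% of 18109. These tested numbers are those that the p-value correction counted and include genes that the tissue may not express, so the shares describe the tables. By family, 5 of 8 metabotropic glutamate, 4 of 7 NMDA, 3 of 5 kainate, 6 of 19 GABA-A, 1 of 4 AMPA, 1 of 5 glycine, 1 of 5 muscarinic and 1 of 13 nicotinic genes were listed. The delta, GABA-B, P2X and P2Y families had 0. Among the 63 family genes that no table lists are Gria1, Gria2, Grin1, Gabbr1 and Chrm1.

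The 23 genes gave 77 listings, 33 of them broad, 29 GABA and 15 Sst. Their differences were small beside those of other listed genes. The median log2 fold change of the members was 1.47 in the broad table against 2.11 over all its listings, 1.48 against 1.67 in the GABA table, and 1.23 against 1.74 in the Sst table. Detection inside the cluster was higher, with medians of 76.7%, 51.1% and 60.1% for the members against 45.8%, 38.9% and 35.3% over all listings, in the order broad, GABA, Sst. Outside the cluster it was higher too, with medians of 23.2%, 23.4% and 18.8% against 13.55%, 14.25% and 12.2%. A log2 fold change of at least 2 was reached by 8 of the 33 broad listings (24.2%, against 53.5% of all), 6 of 29 GABA listings (20.7%, against 38.5%) and 3 of 15 Sst listings (20%, against 39.8%).

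**Figure D1:**
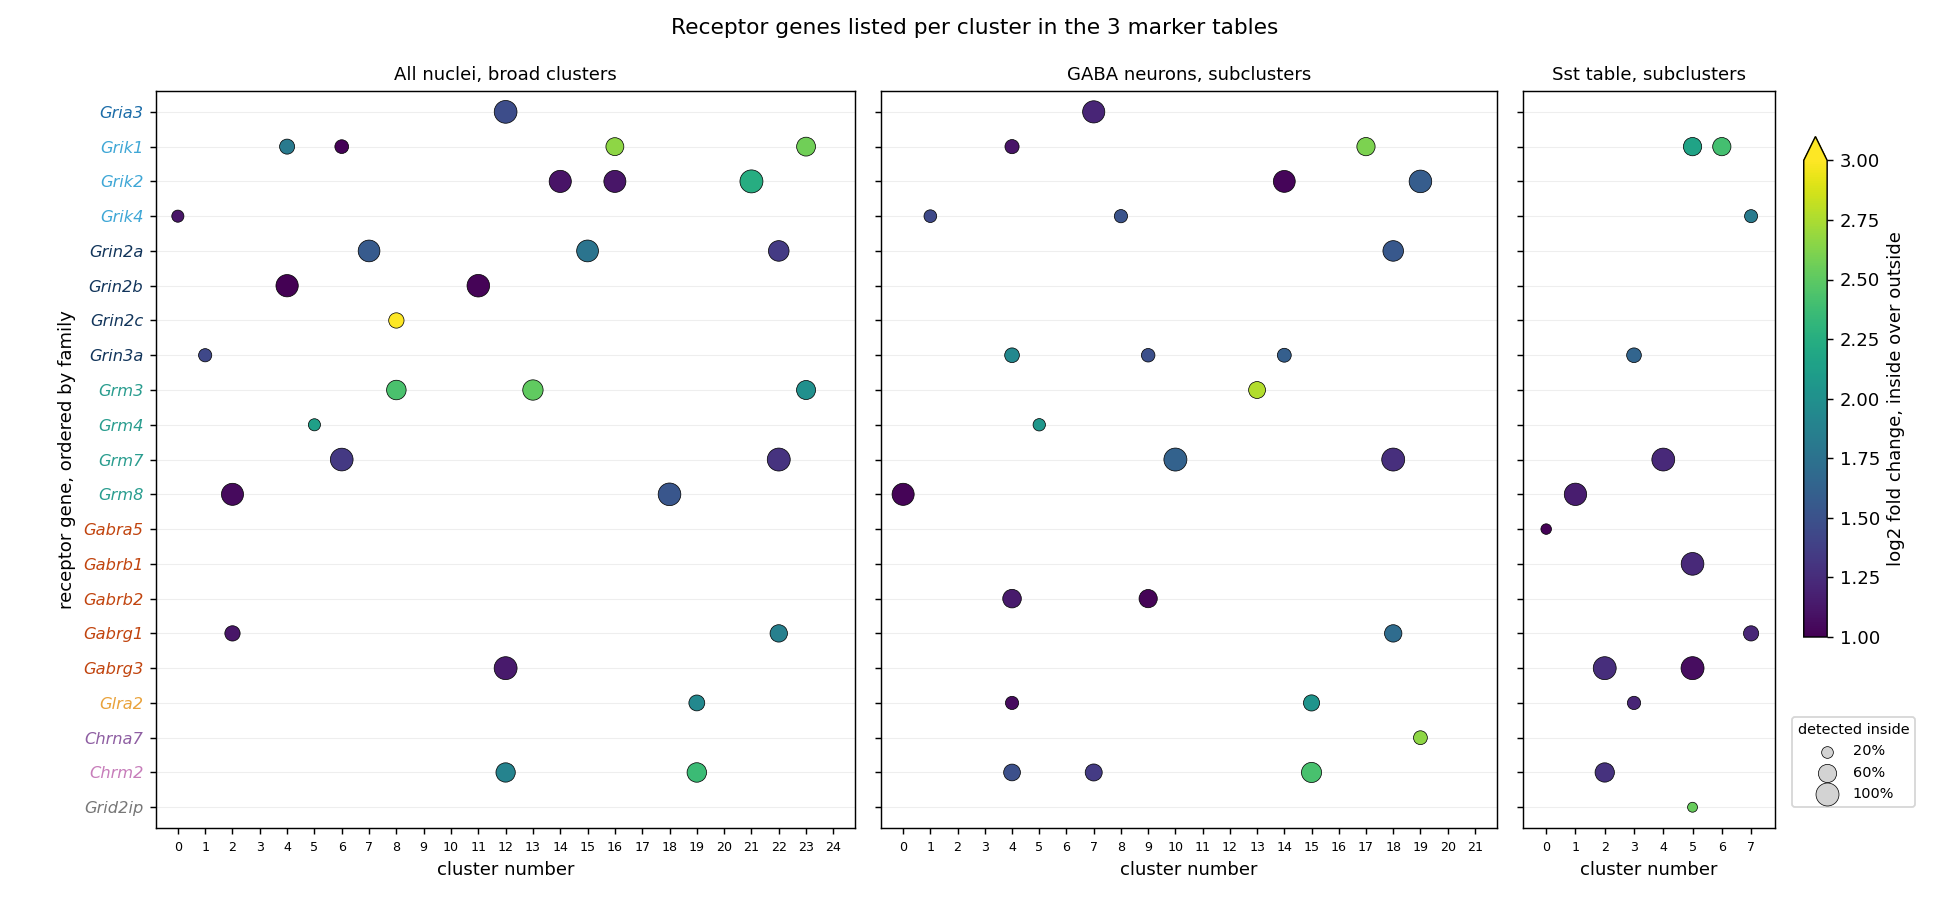
Each dot is a receptor gene (rows, coloured by family) listed for a cluster (columns) of the broad, GABA or Sst table; dot area grows with detection inside the cluster (percent of nuclei), and colour gives the log2 fold change, capped at 3. Grin2c in broad cluster 8 is the only dot above the cap, at 4.52, and GABA subcluster 4 holds the most dots, 5 of the 69 drawn.

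Among NMDA receptor genes, Grin2c stood apart. It encodes the GluN2C subunit, which gives channels with weak magnesium block and is known from cerebellar granule cells and astrocytes. In the authors' deposited table it was listed for broad cluster 8 with a log2 fold change of 4.52 and detection in 40.1% of that cluster's nuclei against 2.5% of all others. By fold change it ranked 2 of the 50 genes of the cluster. Cluster 8 listed 6 of 10 astrocyte markers, among them the glutamate transporter genes Slc1a3 (87.5% inside against 10.3% outside) and Slc1a2 (95.6% against 33.5%) per the authors' deposited table, while Aqp4, Aldh1l1, Gfap and Ntsr2 were not listed. It is called astrocyte-like here. With the shares of nuclei recovered from the detection values, cluster 8 held 4.15% of all nuclei and 41.0% of those with detected Grin2c (40.5% to 41.5% from the rounding of the tables). The other part of the Grin2c nuclei lay in clusters that do not list it. The gene (ENSMUSG00000020734.13) is the shortest of the 23, with a span of 18.1 kb on chromosome 11 from 115249169 to 115267243 (GRCm38, minus strand).

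The same cluster listed Grm3, which encodes the group II receptor mGlu3, at 2.43 with detection of 70% against 19.1% in the authors' deposited table. These are the only members listed for a glia-like cluster. The oligodendrocyte-like cluster 9, with 8 of 8 such markers, listed 0. Cluster 20, with 7 of 7 oligodendrocyte precursor and 4 of 5 newly formed oligodendrocyte markers, also listed 0. The 250 bases before the RefSeq start of each gene are shown because the pair was listed together, and below them in the same way the pair Chrm2 and Glra2, listed together in GABA subclusters. Sequences are from RefSeq on GRCm38.p6, 5′ to 3′ on the gene's strand. Capitals mark the motifs GGGCGG (the GC box) and TATAAA, or their reverse complements.
Grin2c, chr11:115267244-115267493, minus strand: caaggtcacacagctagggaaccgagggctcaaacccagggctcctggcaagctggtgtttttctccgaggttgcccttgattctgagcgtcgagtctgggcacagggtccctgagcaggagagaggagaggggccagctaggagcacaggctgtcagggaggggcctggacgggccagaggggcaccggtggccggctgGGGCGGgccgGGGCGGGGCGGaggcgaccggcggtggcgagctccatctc
Grm3, chr5:9725353-9725602, minus strand: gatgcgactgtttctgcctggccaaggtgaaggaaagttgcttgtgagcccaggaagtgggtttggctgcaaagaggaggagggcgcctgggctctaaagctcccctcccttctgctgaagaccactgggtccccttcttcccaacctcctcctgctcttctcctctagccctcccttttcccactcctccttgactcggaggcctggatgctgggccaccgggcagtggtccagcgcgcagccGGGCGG
Chrm2, chr6:36387834-36388083, plus strand: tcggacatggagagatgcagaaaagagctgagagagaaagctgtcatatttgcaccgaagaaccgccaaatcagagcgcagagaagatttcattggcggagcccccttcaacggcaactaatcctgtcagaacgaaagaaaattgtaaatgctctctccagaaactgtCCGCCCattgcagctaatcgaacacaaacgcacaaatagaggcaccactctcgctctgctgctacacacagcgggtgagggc
Glra2, chrX:165327394-165327643, minus strand: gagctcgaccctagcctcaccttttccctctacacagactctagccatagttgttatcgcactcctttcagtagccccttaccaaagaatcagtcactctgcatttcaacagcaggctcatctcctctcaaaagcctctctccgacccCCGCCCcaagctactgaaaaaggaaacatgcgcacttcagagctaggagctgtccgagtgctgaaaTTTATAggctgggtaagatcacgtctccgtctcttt
GGGCGG was found 3 times upstream of Grin2c, with 2 of the matches overlapping by a base, and 1 time upstream of Grm3, Chrm2 and Glra2 each, searched on both strands. It occurs in 32.7% of all 32851 upstream windows of this length. TATAAA was found 1 time, before Glra2, and occurs in 12.4% of the windows. The GC content was 68.8% for Grin2c, 62.4% for Grm3, 50.4% for Glra2 and 50% for Chrm2.

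Grin2a encodes GluN2A, the subunit typical of mature forebrain synapses. It was listed at 1.57 for broad cluster 7 (88.5% inside against 43.8% outside), at 1.77 for cluster 15 (89.1% against 45.2%) and at 1.34 for cluster 22 (78.7% against 45.7%) per the authors' deposited table. Cluster 7 also listed the vesicular glutamate transporter gene Slc17a7 (51.8% against 5.0%) in the authors' deposited table. Of 9 cortical excitatory markers, cluster 7 and cluster 15 had 1 each, so both stay unnamed. Cluster 22 and GABA subcluster 18 shared 46 of 50 genes, so the 1.55 of Grin2a in that subcluster (78.5% against 42.7% in the authors' deposited table) is not a separate result. The 3 broad clusters together held 8.13% of nuclei and 15.4% of those with Grin2a, which was detected in 42.4% of the nuclei elsewhere.

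Grin2b encodes GluN2B, which is prominent in development and persists in the forebrain. Its differences were at the lower limit of the lists: 1.01 in broad cluster 4 (93.6% against 81.0%) and 1.02 in cluster 11 (96.0% against 81.2%) per the authors' deposited table, the last of 50 by fold change in each. Grin3a encodes GluN3A, which lowers the calcium permeability of NMDA receptors. The authors' deposited table listed it at 1.43 for broad cluster 1 (27.6% against 11.7%). In the GABA table it was listed for subclusters 4, 9 and 14, at 1.93 (36.1% against 10.5%), 1.49 (29.4% against 11.3%) and 1.60 (31.5% against 11.7%) per the authors' deposited table. For Sst subcluster 3 it had 1.64 (36% against 12.6%) in the authors' deposited table. GABA subcluster 4 shared 22 genes with broad cluster 1 and 35 with Sst subcluster 3, so these listings may concern many of the same nuclei. Subclusters 4, 9 and 14 held 38.9% of the GABA nuclei with Grin3a from 14.4% of GABA nuclei, and detection in the other GABA nuclei was 8.73%.

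Of the AMPA receptor genes, only Gria3 was listed, which encodes the GluA3 subunit. The authors' deposited table listed it for broad cluster 12 at 1.47 (97.9% against 72.5%) and for GABA subcluster 7 at 1.21 (92.6% against 72.9%), which share 27 genes. Sst was listed for both clusters.

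Kainate receptor genes gave 17 of the 77 listings. Grik1 encodes GluK1, a subunit known from interneurons. It was listed for 4 broad clusters: at 2.66 for cluster 16 (57.6% against 15%), 2.56 for 23 (64.8% against 15.4%), 1.82 for 4 (38.2% against 14.5%) and 1.01 for 6 (30.6% against 15.1%) per the authors' deposited table. Cluster 16 listed 6 of 13 interneuron markers, among them Npy, Vip and Maf, and cluster 23 listed 3 of 9 cortical excitatory markers. They are called interneuron-like and cortical excitatory-like. The other cortical excitatory-like broad clusters, 13 and 17, did not list Grik1. The interneuron-like GABA subcluster 17, with 4 such markers, had Grik1 at 2.60 (60.1% against 16.4%), and Sst subcluster 6, with 5, at 2.41 (60.1% against 18.7%) per the authors' deposited table. These last clusters shared 42 of 50 genes and are not separate results. GABA subcluster 17 also shared 30 genes with broad cluster 16, so their listings may concern many of the same nuclei. Grik1 was also listed for Sst subcluster 5 at 2.16 (60.5% against 18.5%) and for GABA subcluster 4 at 1.11 (32.9% against 15.9%) per the authors' deposited table. The 4 broad clusters held 35.5% of nuclei with Grik1 from 14.1% of nuclei, and detection in the other broad clusters was 11.9%.

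Grik2 encodes GluK2 and was found in 75.7% of all nuclei by the shares. Its highest value was that of broad cluster 21, at 2.25, where the authors' deposited table gives detection of 100% inside against 75.3% outside. Cluster 21 was led by Bnc2 (6.79) and also listed the vesicular glutamate transporter gene Slc17a6 (5.15, 37.9% against 1.3%) per the authors' deposited table. In the interneuron-like cluster 16 Grik2 had 1.12 (91.2% against 75.4%) and in the medium spiny neuron-like cluster 14, which listed 9 of 11 such markers, 1.10 (92.2% against 75.3%) per the authors' deposited table. GABA subcluster 19, interneuron-like with 7 markers, had 1.58 (96.2% against 73.3%), and subcluster 14 had 1.03 (89.7% against 73.1%) per the authors' deposited table. Subcluster 19 shared 29 genes with broad cluster 16, so their Grik2 listings may concern some of the same nuclei.

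Grik4 encodes GluK4, a subunit of high glutamate affinity that forms channels only with GluK1 to GluK3. It was listed for broad cluster 0 at 1.11 (22.1% against 10.3%), for GABA subclusters 1 and 8 at 1.44 (25.0% against 9.3%) and 1.51 (27.8% against 10.1%), and for Sst subcluster 7 at 1.82 (26.8% against 8.3%) per the authors' deposited table. All 4 lists have the collagen gene Col15a1 among the 3 leading genes, those of largest fold change with detection of at least 25%. GABA subclusters 1 and 8 shared 38 and 16 genes with broad cluster 0, and Sst subcluster 7 shared 30 with GABA subcluster 8. Lists of different tables may therefore concern many of the same nuclei here. Subclusters 1 and 8 held 37.9% of GABA nuclei with Grik4 from 16.1% of GABA nuclei, and Sst subcluster 7 held 41.6% of the Sst nuclei with it from 18.1%.

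**Figure D2:**
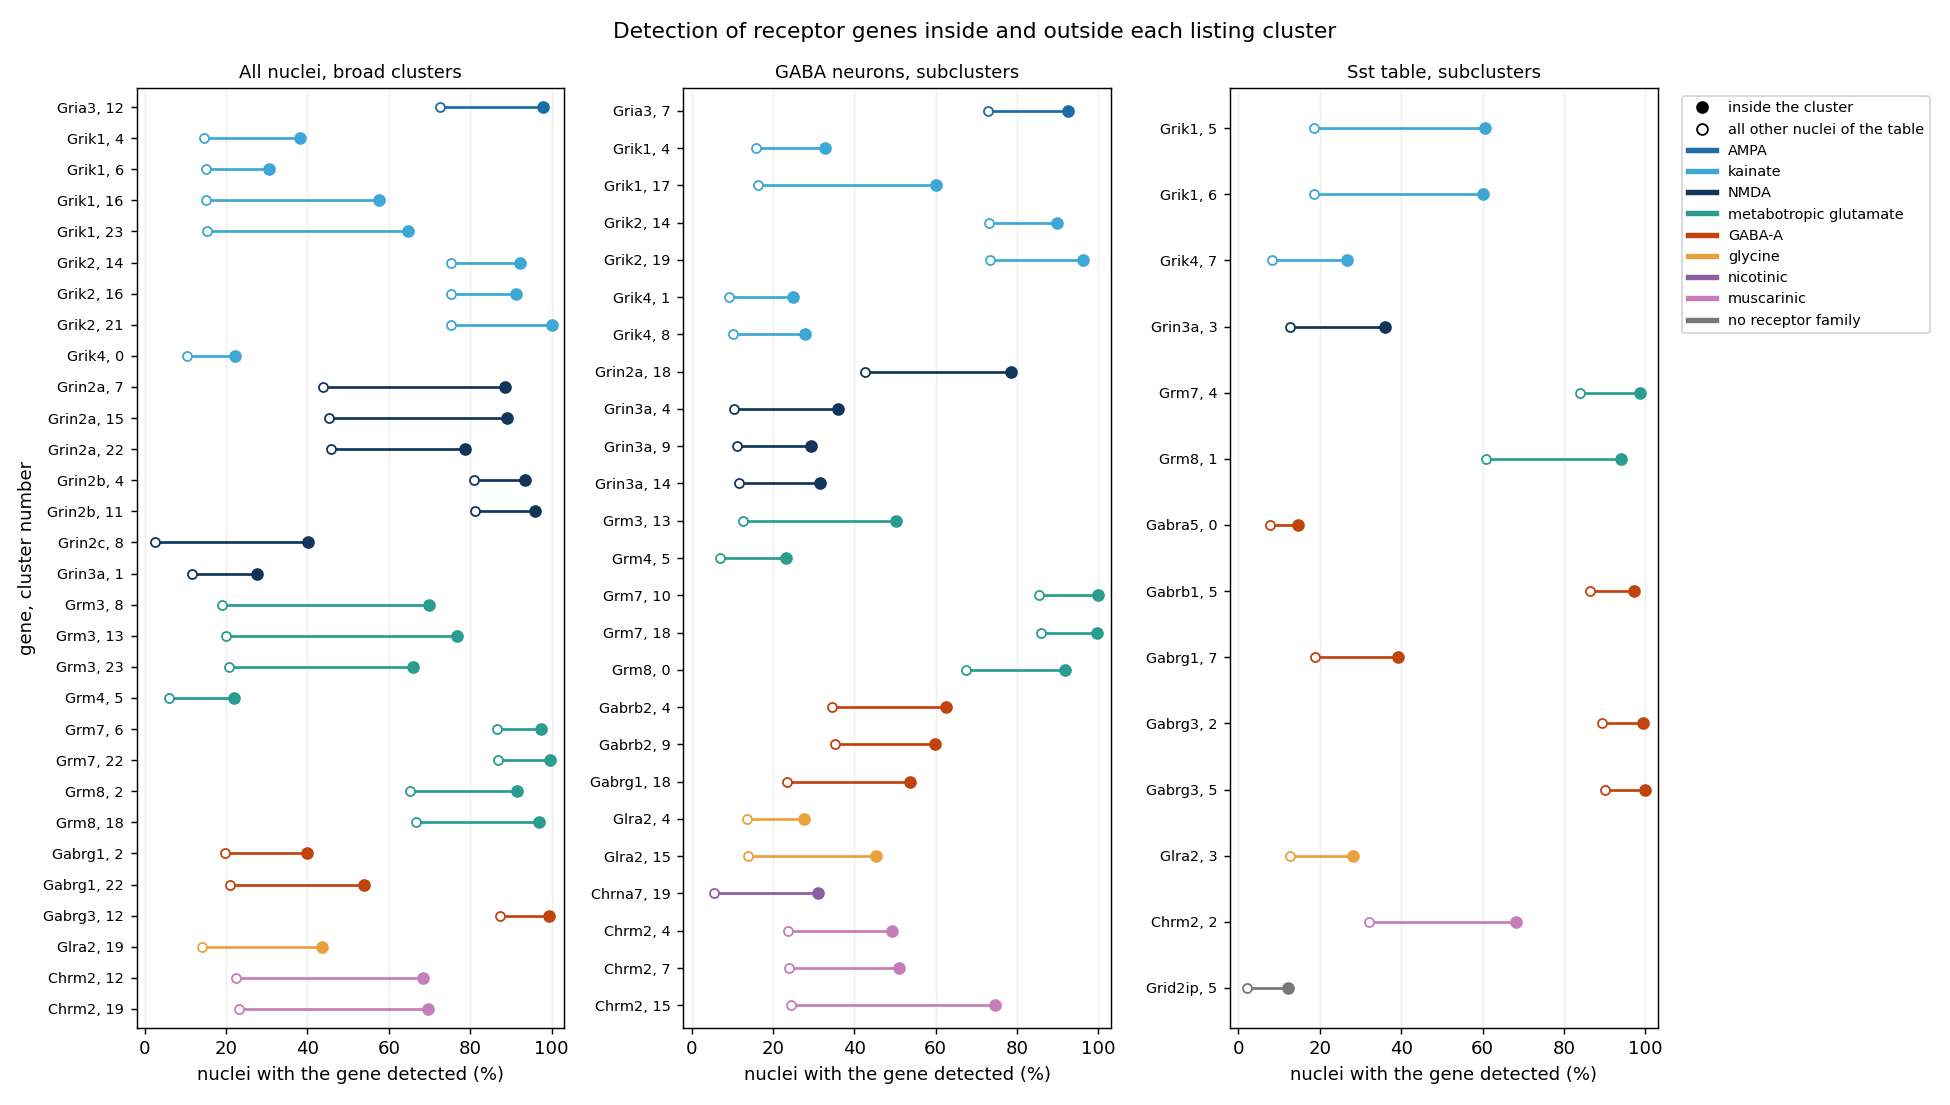
For each of 69 listings (rows: gene and cluster number), the filled dot is the percentage of nuclei with the gene detected inside the cluster and the open dot that in all other nuclei of the same table; colours mark receptor families. Grm7, Grik2, Gria3, Grin2b, Gabrb1 and Gabrg3 start at 72.5% or more outside, while Grin2c, Chrna7, Grm4, Gabra5 and Grid2ip start at 7.8% or less.

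Metabotropic glutamate receptor genes gave 19 listings. Grm3 was listed for clusters of different kinds. Beside the astrocyte-like cluster 8 these were the cortical excitatory-like clusters 13, at 2.51 (76.7% against 19.9%), and 23, at 2.00 (66.0% against 20.8%), per the authors' deposited table. Cluster 13 listed 3 of 9 cortical excitatory markers and also the astrocyte marker Bmpr1b (36.3% against 4.0% in the authors' deposited table). Broad cluster 17, also cortical excitatory-like with 3 of these 9 markers, listed 0 members. In the GABA table Grm3 had the largest fold change of any member, 2.77, in the medium spiny neuron-like subcluster 13 (50.3% against 12.6% in the authors' deposited table). That subcluster shared 43 of 50 genes with broad cluster 14, whose list does not hold Grm3. It also listed the astrocyte marker Slc4a4 (51.4% against 9.7% in the authors' deposited table), and the part of this in the Grm3 value was not tested. Clusters 8, 13 and 23 held 24.8% of nuclei with Grm3 from 7.35% of nuclei, and detection was 17.2% in the rest.

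The group III receptors are mainly presynaptic, and 3 of their 4 genes were listed. Grm4, which encodes mGlu4, was listed for broad cluster 5 at 2.13 (21.9% against 6.0%) and for GABA subcluster 5 at 2.06 (23.3% against 6.9%) per the authors' deposited table. These clusters shared 47 genes and are led by Fam19a1, Dach2 and Pld5. Subcluster 5 held 19.2% of GABA nuclei with Grm4 from 6.59% of GABA nuclei.

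Grm7 encodes mGlu7, a receptor of low glutamate affinity, and was found in nearly all nuclei of each listing cluster. It was listed for broad clusters 6 (1.33, 97.4% against 86.5%) and 22 (1.30, 99.7% against 86.9%) per the authors' deposited table. GABA subclusters 10 (1.62, 100% against 85.4%) and 18 (1.27, 99.7% against 85.8%) and Sst subcluster 4 (1.23, 98.7% against 84%) also listed it in the authors' deposited table. Subcluster 10 shared 29 genes with broad cluster 6, and subcluster 18 shared 46 with broad cluster 22. Their listings may therefore concern many of the same nuclei. Grm8, which encodes mGlu8, was listed for broad cluster 18 at 1.53 (96.8% against 66.8%) and for broad cluster 2 at 1.05 (91.4% against 65.2%) per the authors' deposited table. Slc17a6 was listed for cluster 18 and also for cluster 21, which did not list Grm8. Grm8 had 1.02 in GABA subcluster 0 (91.9% against 67.5%) and 1.16 in Sst subcluster 1 (94.0% against 60.8%) per the authors' deposited table. GABA subcluster 0 shared 37 genes with broad cluster 2, so these 2 listings may concern many of the same nuclei. Sst subcluster 1 listed 3 of 11 lateral septum markers, Nts, Meis2 and Sst, and also 2 of 7 oligodendrocyte precursor markers, Vcan and Tnr, and is kept by its number.

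GABA-A subunit genes had log2 fold changes from 1.01 to 1.86. Gabrb2, which encodes the beta2 subunit, was listed for GABA subclusters 4 and 9. The authors' deposited table gave it at 1.14 in subcluster 4 (62.5% against 34.5%) and at 1.02 in subcluster 9 (59.9% against 35.2%). These subclusters held 11.8% of GABA nuclei and 19.8% of those with Gabrb2, which was detected in 33.1% of the other GABA nuclei.

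Gabrg1 encodes the gamma1 subunit. It had the highest GABA-A value, 1.86, in broad cluster 22 (53.8% against 21%), and 1.70 in the matching GABA subcluster 18 (53.7% against 23.4%) per the authors' deposited table. It was also listed at 1.12 for broad cluster 2 (39.8% against 19.7%) and at 1.22 for Sst subcluster 7 (39.3% against 18.8%) per the authors' deposited table. Gabrg3, which encodes gamma3, was listed at 1.13 for broad cluster 12 (99.3% against 87.3%) and at 1.26 and 1.07 for Sst subclusters 2 (99.5% against 89.3%) and 5 (100% against 90.1%) per the authors' deposited table. Gabrb1, which encodes beta1, was listed once, for Sst subcluster 5 at 1.23 (97.2% against 86.4% in the authors' deposited table). Gabra5 encodes alpha5, known from extrasynaptic receptors of the hippocampus. It was the last of the 50 genes of Sst subcluster 0, at 1.01 (14.7% against 7.8% in the authors' deposited table). By its size, 27.9% of the Sst nuclei, that subcluster held 42.2% of those with Gabra5.

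The glycine receptor gene Glra2 encodes the alpha2 subunit, and the M2 receptor of the muscarinic receptor gene Chrm2 inhibits through Gi proteins. Both were listed for broad cluster 19 and for GABA subclusters 15 and 4. For broad cluster 19 the authors' deposited table gives Glra2 at 1.94 (43.5% against 14%) and Chrm2 at 2.36 (69.7% against 23.2%). GABA subcluster 15 had Glra2 at 2.03 (45.3% against 13.9%) and Chrm2 at 2.41 (74.5% against 24.4%) per the authors' deposited table. It shared 37 genes with broad cluster 19, so these listings may concern many of the same nuclei and are not separate results. Both clusters were led by the transcription factor gene Foxp2, and Chrm2 was among the 3 leading genes of cluster 19. Subcluster 15 also listed the astrocyte marker Slc1a3 (31.4% against 8.0% in the authors' deposited table), 1 of 10 of that list, and its part in these values was not tested. GABA subcluster 4 had lower values, with Glra2 at 1.06 (27.6% against 13.6%) and Chrm2 at 1.48 (49.3% against 23.8%) per the authors' deposited table. Their upstream sequences are printed above.

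Chrm2 was further listed, without Glra2, for broad cluster 12 at 1.89 (68.4% against 22.5%), for GABA subcluster 7 at 1.35 (51.1% against 24.0%) and for Sst subcluster 2 at 1.29 (68.3% against 32.1%) per the authors' deposited table. All 3 lists are led by Etv1 or hold it among their 3 leading genes. GABA subcluster 7 shared 27 genes with broad cluster 12 and 25 with Sst subcluster 2, so these listings may concern many of the same nuclei. Glra2 was further listed for Sst subcluster 3 at 1.21 (28.1% against 12.8%) in the authors' deposited table. That subcluster shared 35 genes with GABA subcluster 4, but its list does not hold Chrm2. GABA subclusters 4, 7 and 15 held 30.4% of GABA nuclei with Chrm2 from 14.4% of GABA nuclei, and detection was 20.7% in the others. Of 6 septal cholinergic markers only Ecel1 was listed in any cluster, and Chat, Slc5a7 and Slc18a3 in 0.

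Chrna7, which encodes the alpha7 nicotinic subunit, was listed for the interneuron-like GABA subcluster 19 at 2.66 (31.2% against 5.5%) in the authors' deposited table. The subcluster had 1.08% of GABA nuclei and 5.83% of those with Chrna7. Grid2ip was listed for Sst subcluster 5 at 2.53 (12.2% against 2.2%) in the authors' deposited table, the largest fold change of a member in the Sst table. That subcluster held 5.53% of Sst nuclei and 24.5% of those with Grid2ip. Delphilin is known as a scaffold protein of cerebellar synapses.

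Several clusters listed more than 2 members. GABA subcluster 4 listed 6, among them Grin3a, Chrm2, Gabrb2, Grik1 and Glra2. Its leading genes were Car10 (1.97, 73.2% against 31.6%), Gfra1 (1.97, 60.9% against 20.1%) and Grin3a in the authors' deposited table. Its match, Sst subcluster 3, listed 3, among them Grin3a and Glra2, and GABA subcluster 9 listed 3, among them Grin3a and Gabrb2. Sst subcluster 5, led by Gpc5, Stxbp6 and Lmo4, listed Grid2ip, Grik1, Gabrb1 and Gabrg3. Broad cluster 22 and GABA subcluster 18 each listed Gabrg1, Grin2a and Grm7. Broad cluster 12 listed Chrm2, Gria3 and Gabrg3, and the 3 of broad cluster 2 included Gabrg1 and Grm8. By contrast 6 of 25 broad clusters and 8 of 22 GABA subclusters listed 0 members, and each of the 8 Sst subclusters listed at least 1.

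In which part of the nuclei a gene was found and how much its mean level differed were separate measures. A log2 fold change equal to the log2 ratio of detection would follow if nuclei with the gene had the same mean level inside and outside. The fold change was the larger value in 76 of the 77 listings, and the exception was Grik1 in broad cluster 6 (1.01 against 1.02). It was more than 1 larger in 9 listings, of Grik2, Grm7, Gria3, Gabrb1 and Gabrg3. Listed log2 fold changes start at 1, while detection inside cannot pass 100%. In these 9 listings detection outside was 72.5% or more, so the detection ratio had to be small and a gap had to follow. The count of 76 and the genes of largest gap are therefore in part fixed by the lists. The largest gap was that of Grik2 in broad cluster 21, with a fold change of 2.25 and a log2 detection ratio of 0.41. For Grm7 in GABA subcluster 10 the values were 1.62 and 0.23. For Grik4, Glra2 and Grid2ip the gap stayed under 0.33. The sources used here do not give the pseudocount in the authors' fold change, which can change this gap.

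**Figure D3:**
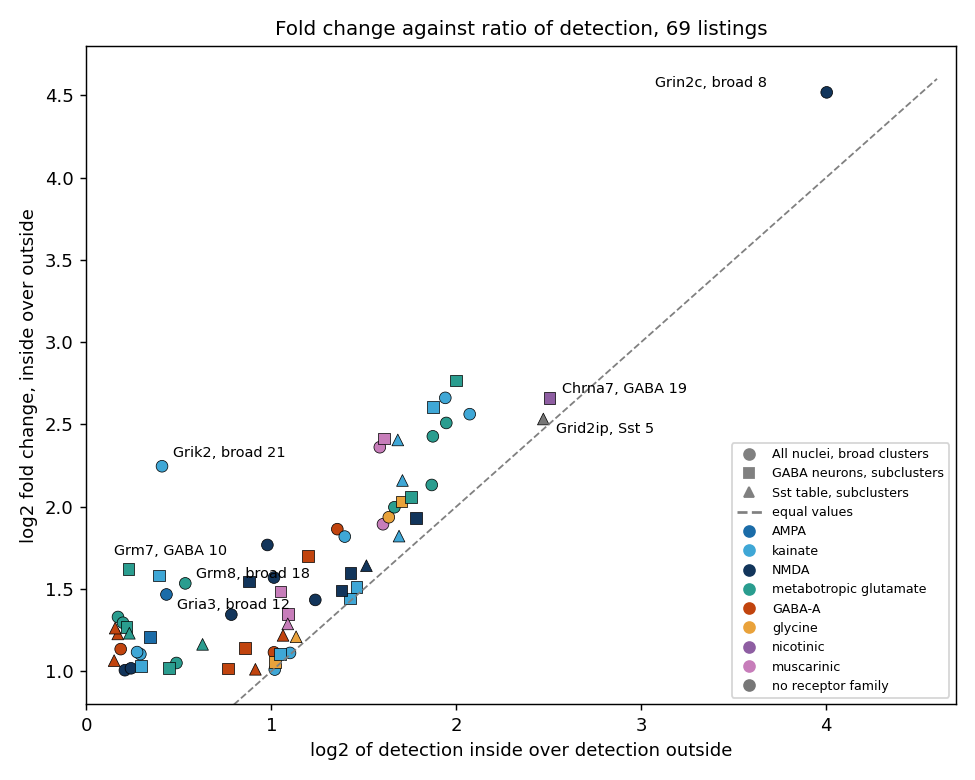
Each point is 1 of 69 listings, with the log2 ratio of detection inside over outside on the horizontal axis and the log2 fold change on the vertical axis; shapes mark the table, colours the family, and the dashed line equal values. Points lie above the line except Grik1 in broad cluster 6, and those farthest above it, such as Grik2 in broad cluster 21, have a detection ratio near 1 (0 on the log2 axis). A listing with such a ratio must lie above the line, since listed log2 fold changes start at 1.

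In none of the 77 listings did the cluster hold most of the nuclei with the gene. Its part of them ran from 1.24% for Grm7 in broad cluster 22 to 45% for Grin3a in Sst subcluster 3. Other high parts belonged to large clusters, such as Sst subclusters 0, 3 and 7, while Grin2c in broad cluster 8 and Grid2ip in Sst subcluster 5 reached theirs from small ones. All parts lie above the cluster's own share of nuclei, which follows from detection being higher inside than outside in all listings.

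**Figure D4:**
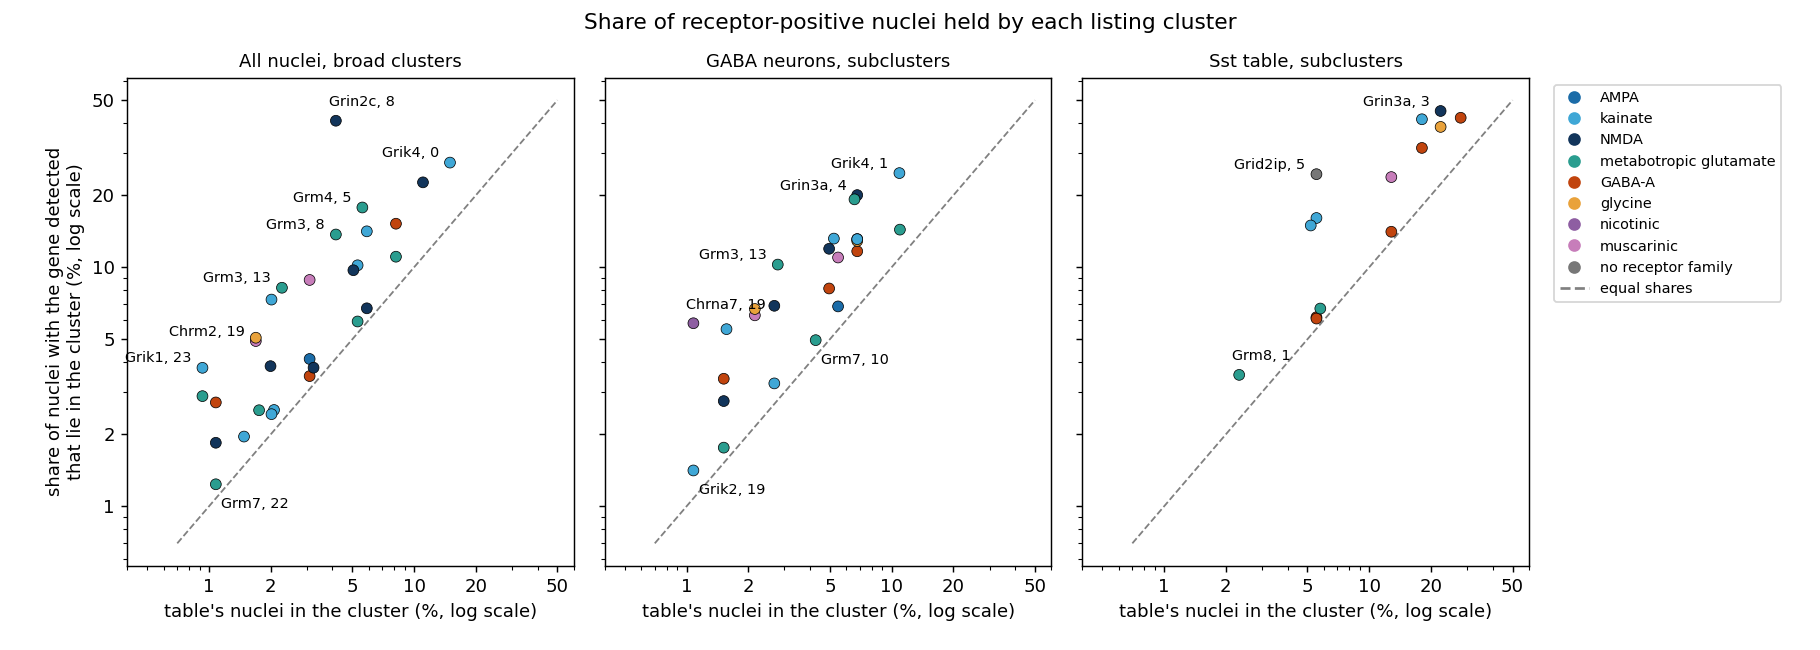
Each point is 1 of 69 listings, with the cluster's share of the table's nuclei on the horizontal axis and its share of the nuclei with the gene detected on the vertical axis, both in percent on log scales; the dashed line marks equal shares and colours the family. Grin2c in broad cluster 8 lies farthest above the line, with 41.0% of the Grin2c nuclei from 4.15% of all nuclei.

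Nuclear RNA holds many unspliced transcripts, and reads from introns favour long genes. The 23 genes are long: their median span was 240 kb (18.1 kb to 922 kb), 18 of them exceeded 100 kb, and the median over protein-coding genes was 17.3 kb. The other listed genes are long too, with medians over all listed genes of 133 kb (broad), 154 kb (GABA) and 178 kb (Sst). Across genes, span and the highest detection outside a listing cluster went together, with Spearman's rho of 0.73, 0.62 and 0.63 over the 18, 17 and 13 members and 0.70, 0.70 and 0.72 over all listed genes with an annotated span of these tables. Genes are not independent replicates, so these are descriptions. Grm7 (chromosome 6 from 110645581 to 111567230) and Grm8 (chromosome 6 from 27275119 to 28135178) are the longest. Other annotated genes overlap 9 of the 23 spans, for 7 of them on the other strand, among them Gabra4 at the start of Gabrb1 and Gm20387 in Grm7. The sources used here do not say whether the counting used strand, so reads of such pairs may not be told apart.

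**Figure D5:**
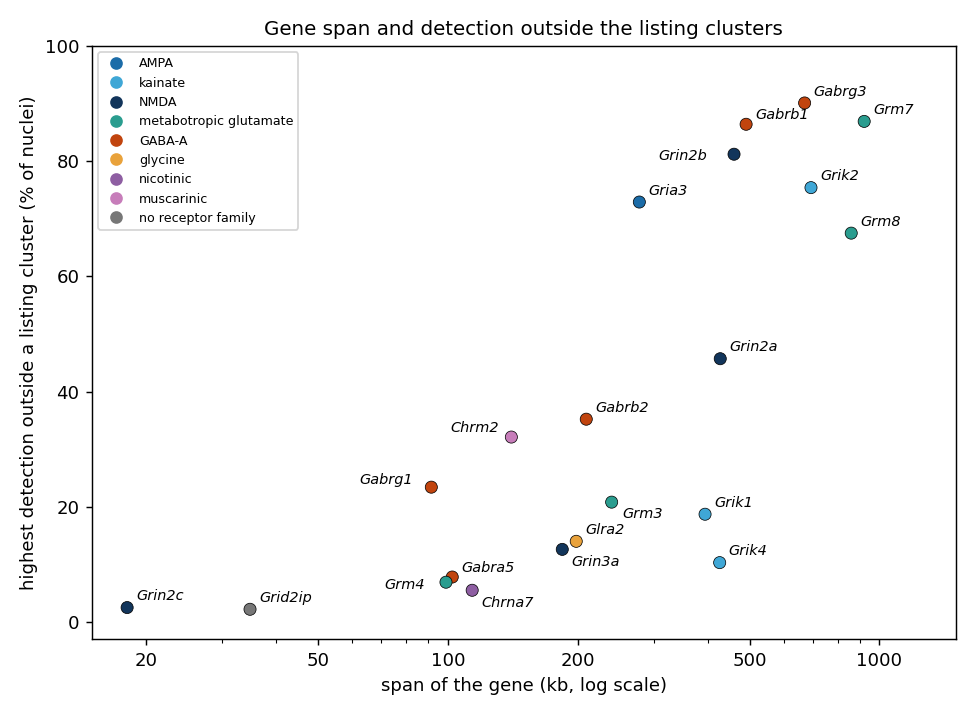
Each point is 1 of 21 genes, with its annotated span on the horizontal axis (kb, log scale) and its highest detection outside a listing cluster in any table on the vertical axis (percent of nuclei); colours mark the family. Grin2c and Grid2ip, the shortest genes, have the lowest values, and Grik4, with 426 kb and 10.3%, is long but seldom detected.

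Genes that act with these receptors were counted in the same way, to be read beside the 4.05%, 3.52% and 1.95% of all tested genes that the broad, GABA and Sst tables list. For short lists such a share rests on 1 or a few genes, and nothing is read from the differences between tables. Of 37 genes for auxiliary and scaffold proteins of ionotropic glutamate receptors, 11 were listed in the broad table (29.7%), 10 among the GABA subclusters (27.0%) and 2 among the Sst subclusters (5.41%). The highest were the synaptic organiser gene C1ql3 in broad cluster 7 (5.06, 31.9% against 1.1%), beside Grin2a, and the cerebellin gene Cbln2 in cluster 23 (4.78, 17.2% against 0.6%) per the authors' deposited table. In the GABA table these were the pentraxin gene Nptx2 in subcluster 20, found in 2.0% of nuclei and listed at 0 outside, and Olfm3 in subcluster 21 (4.56, 94.3% against 15.7%) per the authors' deposited table. In the Sst table they were Grid2ip and Shisa6, at 1.55 in subcluster 5 (86.5% against 53.3%) per the authors' deposited table. Neto1, whose protein modifies kainate receptors, was listed for broad clusters 14 (1.71), 22 (1.62) and 1 (1.00) in the authors' deposited table. GABA subclusters 18 (1.63) and 6 (1.12) also listed it per the authors' deposited table. Only broad cluster 14 among these listed a kainate gene, Grik2.

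Of 14 genes for scaffold and auxiliary proteins of inhibitory receptors, 1 was listed in each table (7.14%), the GABA-B auxiliary gene Kctd8. Its highest values were 2.55 in broad cluster 14 (38.9% against 10.0%), 2.67 in GABA subcluster 14 (34.3% against 9.8%) and 2.74 in Sst subcluster 6 (41.7% against 9.6%) per the authors' deposited table. Among 14 effectors of metabotropic receptors, 4 were listed in the broad table (28.6%), 6 among the GABA subclusters (42.9%) and 3 among the Sst subclusters (21.4%). The inositol trisphosphate receptor gene Itpr1 (2.01, 57.9% against 19.6%) and the channel gene Trpc6 (2.05, 34.1% against 11.2%) were highest in broad cluster 11, and Itpr1 (2.20, 58.0% against 17.3%) and Trpc6 (2.11 in subcluster 2, 35.2% against 10.2%) in the GABA table, all in the authors' deposited table. In the Sst table the highest was Itpr1 in subcluster 3 (1.68, 41.4% against 15.5%) per the authors' deposited table. Of 8 genes of glutamate release and uptake, 4 were listed for broad clusters (50%), 1 for a GABA subcluster (12.5%) and 0 for Sst subclusters, and the highest were Slc17a6 and Slc1a3 as given above. Of 9 genes of GABA and glycine synthesis and transport, 1 was listed in each table (11.1%). The GABA transporter gene Slc6a11 had 1.30 in GABA subcluster 7 (15.3% against 6.6%) and 1.63 in Sst subcluster 2 (18.7% against 6.3%) per the authors' deposited table. Both subclusters also list Chrm2, but they shared 25 genes and may concern many of the same nuclei. Of 7 genes of acetylcholine synthesis, transport and breakdown, 0 were listed.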

How the data were processed

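The values are 3 tables of cluster markers that the authors made from 3 libraries of pooled nuclei. Seurat 4 and mm10 are named in the submitters' processing notes; aligner, filters, doublet treatment, clustering and test are not given in the sources. Per the file headers, the authors deposited an averaged log2 fold change with no stated pseudocount, and the fraction of nuclei with the gene detected inside and outside the cluster, to 3 decimals, written here as a percentage. The p-values deposited by the authors are over nuclei, not animals, and were not used to rank. An adjusted p-value divided by its raw p-value gave the number of genes that the correction counted, per the deposited tables. It is called the number tested here, though the sources do not say whether each gene was tested in every cluster.

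Values were computed in Python 3.11.15 (pandas 2.3.3; numpy 2.4.6; scipy 1.17.1) and plotted with matplotlib 3.10.9. All matching genes are named with the values of each listing, except 2 genes with 8 listings that, like a few other genes, are not reported here; they are kept in the counts and medians and left out of the figures. Also named are the 2 genes of highest fold change per pathway list and table and the 3 leading genes of clusters with 3 or more members. Other genes, such as Neto1 and leading genes of smaller clusters, were chosen after their values were seen. The members, lists and rules were chosen with earlier results of these data known. Cell type names ("like") needed at least 3 listed markers.

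Overall detection of a gene must come out equal from every cluster that lists it. This gave linear equations in the clusters' shares of nuclei, solved by least squares from 286, 258 and 42 genes of the broad, GABA and Sst tables and tested on simulated data. The shares summed to 100.4%, 100.6% and 99.9%. Gene positions came from GENCODE M21 (GRCm38, the assembly of mm10) and upstream sequences from a table of RefSeq windows in which 15 of the 23 genes were matched. With 1 group and no values per library, no comparison of samples was made, and depth is unknown.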

Additional observations from a re-analysis of the deposited data

How the results depend on the processing

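The count of 23 member genes was 20 with detection of at least 25% inside, 22 with a detection difference of at least 10 points, 20 for glutamate, GABA and glycine receptor genes only, and 23 with an adjusted p under 0.001. A minimum log2 fold change of 2 left 9 genes, with 8 of 33 listings in the broad table, 6 of 29 in the GABA table and 3 of 15 in the Sst table, since most members lie between 1 and 2. Keeping genes listed for 1 cluster of a table left 8 broad and 7 GABA listings, as most of the others concern genes shared by clusters, and 11 in the Sst table. The members of largest fold change were not first by detection difference: Grin2c ranked 11 in the broad table, Grm3 in GABA subcluster 13 ranked 5, and Grid2ip ranked 13 in the Sst table. By detection ratio Grm3 ranked 2 and the other two stayed first. The part of the Grm3 nuclei in GABA subcluster 13, 10.3%, was 10.4% with weighted least squares and 10.2% with the shares held to a sum of 1. Over 308 recomputed parts the largest move was 0.248 points, and 117 of them moved beyond the range from rounding. The direction of a listing could not change, since it comes from the deposited detection and not from the shares. Leaving out a library was not run because the tables have no values per library. No paired analysis was possible because the libraries form 1 group and the result comes from no test.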

Other observations

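Some of the listed GABA-A subunit genes share a chromosome on GRCm38. Gabrg3 and Gabra5 lie 20.5 kb apart on chromosome 7 and were listed for different Sst subclusters, 2 and 5 for Gabrg3 and 0 for Gabra5. Gabrg1 and Gabrb1 lie 816 kb apart on chromosome 5, with other GABA-A subunit genes between them, and were listed for Sst subclusters 7 and 5. Whether position has a part in which subunits were listed together was not tested.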
